A study of Mus musculus with 9 samples.

Results

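The microRNA miR-21a of the mouse was followed through small RNA libraries of exosomes, which are membrane vesicles shed by cells. Its 2 mature products were taken by name, miR-21a-5p from the 5' arm and miR-21a-3p from the 3' arm of one hairpin, and these are 2 of the 1101 mature miRNAs listed in at least 1 library. The vesicles came from RAW264.7, a mouse macrophage cell line kept in medium with fetal bovine serum. There were 3 groups of 3 libraries: untreated cells, cells treated with silica for 24 h and cells treated with silica for 48 h. How long the untreated cells were cultured is not stated in the sources used here, and the 3 libraries of a group are called independent repetitions in the series' design text. The series asked which exosomal miRNAs change when macrophages meet silica, the mineral dust behind the lung disease silicosis.

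A miRNA hairpin is cut into a short duplex, of which one strand, the guide, is loaded into an Argonaute protein and directs it to messenger RNAs through its seed, bases 2 to 8, while the other strand, the passenger, is mostly degraded. miR-21-5p is the guide of its hairpin. In macrophages it is known as a miRNA induced by inflammatory signals through NF-kappaB, AP-1 and STAT3 that restrains PDCD4, and in lung fibroblasts it is known to favour fibrosis through Smad7.

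The sequences below are shown because the counts depend on telling these RNAs apart, with the seed in capitals (RefSeq, build GRCm38.p6, 5' to 3').
mmu-miR-21a-5p: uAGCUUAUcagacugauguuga
mmu-miR-21a-3p: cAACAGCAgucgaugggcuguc
mmu-miR-21b: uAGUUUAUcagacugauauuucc
mmu-miR-21c: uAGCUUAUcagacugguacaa
miR-21b and miR-21c come from other loci, on chromosomes 3 and 8, and resemble miR-21a-5p over much of their length. With positions counted from 1 at the 5' end and the miR-21a-5p base given first, miR-21b differs by C4U, G18A, G21U and A22C, the first of them inside the seed. miR-21c has the same seed and differs by A16G, G18A, U19C, U20A and G21A. Neither was listed in any of the 9 libraries. In the sequence table, which held 937 of the 1101 listed miRNAs, no other listed miRNA carried the seed of miR-21a-5p, and none besides miR-21a-3p carried the seed of miR-21a-3p. miR-590-5p, known to share the miR-21-5p seed and added after its values were seen, had a single count in each of 3 libraries. Among the listed miRNAs whose seed was known, miR-590-5p included, nearly all counts with the AGCUUAU seed were therefore miR-21a-5p. The seeds of the other listed miRNAs were not checked. Summed by seed over the miRNAs in the sequence table, miR-21a-5p stood in position 10 of 806 seeds. Its mean was 37924 CPM (counts brought to a common total of mature miRNA counts, with TMM scaling).

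The hairpin of 92 bases lies on the minus strand of chromosome 11 (GRCm38, the build called mm10), at chr11:86584067-86584158. The 5p arm spans chr11:86584120-86584141 and the 3p arm chr11:86584082-86584103. In the GENCODE M21 annotation the hairpin lies within Vmp1, a gene for an endoplasmic reticulum protein needed for autophagy, on the same strand. There it falls in exon 12 of 12 of the transcript Vmp1-201, in the 3' UTR.

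The libraries held 2158418 to 8331451 counts of mature miRNA, which were 28.0% to 44.7% of all counted reads. Before TMM scaling, a count of 3 in a library equals 0.360 to 1.39 CPM. With TMM scaling, the 3 counts of miR-21a-3p in the 24 h library 3 were 1.56 CPM. Across the 453 miRNAs tested, the untreated library 2 and the 48 h library 2 were the pair most alike of all 36 pairs (r = 0.969 of log2 CPM, taken over miRNAs, so that its points are not independent). They also listed the most mature miRNAs, 829 and 912, against 486 to 713 in the other 7. For the main comparisons, values without this pair are given as well. Of the markers of the labelled cell type, miR-342-3p, miR-223-3p and miR-142a-5p were present in every library, and the 6 haematopoietic markers written down summed to 556 to 1569 CPM. The summed levels in other lists were 77.2 to 198 CPM for 7 epithelial markers, 408 to 2240 for 6 mesenchymal and endothelial markers and 410 to 824 for 6 neuron and muscle markers, with none of these markers at 0 in all libraries. By summed level alone the labelled cell type was thus not set apart from the last 2 of these lists. Each sum rested largely on few miRNAs. The highest means were miR-342-3p at 697 CPM (haematopoietic), miR-126a-3p at 537 (mesenchymal and endothelial) and miR-128-3p at 461 (neuron and muscle). In the last list miR-9-5p came next at 87.3 CPM, and it is also on the list of activated macrophages used below. The 5 erythroid, liver and serum markers, led by miR-16-5p, which is found in most cells, summed higher still, to 8156 to 43080 CPM.

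By counts, miR-21a-5p was one of the major miRNAs of the vesicles. It had 176751, 320656 and 137269 counts in the untreated libraries 1, 2 and 3. At 24 h of silica the counts were 121148, 184896 and 47037, and at 48 h they were 142391, 647918 and 117587. It made up 2.18% to 7.78% of the mature counts of a library and 0.610% to 3.47% of all counted reads. Its place among the mature miRNAs was 2 in the 48 h library 2 and 4 in the untreated library 2, and 8 to 14 in the other 7 libraries. By mean CPM over the 9 libraries it stood in position 10. Just above it were miR-27b-3p at 41635 ± 16286 CPM and miR-7a-5p at 38756 ± 22873, and just below it let-7b-5p at 35956 ± 13060 and let-7i-5p at 32313 ± 8120, against 37924 ± 14406 for miR-21a-5p (SD, n = 9). None of these neighbouring levels differed beyond the spread between libraries. The 12 most abundant miRNAs in the sequence table are all 21 to 23 bases long, so no length correction was made. Other differences between sequences in how readily they are counted were neither corrected nor tested. Ranks and ratios between miRNAs or arms are therefore those of counts.

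In CPM, the untreated libraries 1, 2 and 3 stood at 32916, 54756 and 31173 for miR-21a-5p. The 24 h libraries stood at 31304, 30645 and 24383. The 48 h libraries stood at 41151, 67897 and 27095. Library 2 was the highest in the untreated and in the 48 h group, and the lowest of all was the 24 h library 3, which also had the fewest mature counts. By group mean the order was 24 h at 28777 ± 3820, untreated at 39615 ± 13141 and 48 h at 45381 ± 20727 CPM (SD, n = 3), and all 3 ranges overlapped. Apart from the untreated library 2 and the 48 h library 2, the libraries lay between 24383 and 41151 CPM.

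**Figure D1:**
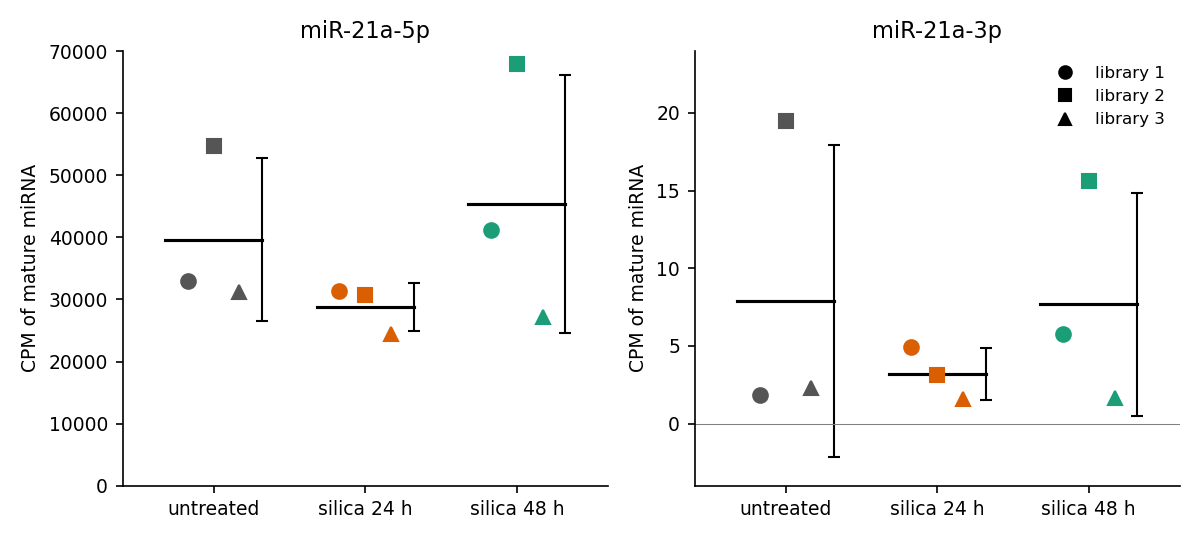
CPM of mature miRNA (vertical axes) of miR-21a-5p on the left and miR-21a-3p on the right in the 3 libraries of each group, with the mean as a bar and the SD beside it (n = 3); the lower end of the SD of untreated miR-21a-3p passes below 0, which CPM itself cannot. Library 2 of the untreated and of the 48 h group is the highest of its group in both panels, with 54756 and 67897 CPM for 5p and 19.5 and 15.6 CPM for 3p.

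miR-21a-3p, the passenger strand, was scarce among the mature rows. It had 10, 114 and 10 counts in the untreated libraries 1, 2 and 3. At 24 h it had 19, 19 and 3 counts, and at 48 h 20, 149 and 7. The 2 libraries with more than 20 counts were again the untreated library 2 and the 48 h library 2. The lowest count, 3, has an exact 95% Poisson interval of 0.619 to 8.77 and the highest, 149, one of 126 to 175, which cover counting error only. In CPM the values were 1.86, 19.5 and 2.27 in untreated, 4.91, 3.15 and 1.56 at 24 h, and 5.78, 15.6 and 1.61 at 48 h. Group means were 3.20 ± 1.68 CPM at 24 h, 7.67 ± 7.19 at 48 h and 7.87 ± 10.05 in untreated (SD, n = 3), and the ranges overlapped. Apart from the untreated and the 48 h library 2, the values lay between 1.56 and 5.78 CPM. It stood in position 334 by mean CPM, between miR-129-5p at 6.27 ± 6.52 and miR-1b-5p at 6.12 ± 10.4 (SD, n = 9), and one place further off were miR-184-3p at 6.34 and miR-7658-5p at 6.10 CPM. These levels did not differ beyond the spread between libraries either.

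By the mature rows alone, the hairpin was thus strongly one-sided in the vesicles. Reads of the Rfam mir-21 family, given below, are outside these counts. They numbered 1200 to 4411 in a library, more than those of 3p, and the arm they come from is not given. Over all 9 libraries there were 1895653 counts of 5p and 351 of 3p, or 5401 counts of 5p for each count of 3p. The 3p share of both arms was 0.00566%, 0.0355% and 0.00728% in untreated, 0.0157%, 0.0103% and 0.00638% at 24 h, and 0.0140%, 0.0230% and 0.00595% at 48 h. The highest share, in the untreated library 2, had a 95% Wilson interval of 0.0296% to 0.0427%. That of the 48 h library 2 ran from 0.0196% to 0.0270%, and that of the lowest, in the untreated library 1, from 0.00307% to 0.0104%. Both library 2 values lay above those of the other 7 libraries, and the interval of the untreated library 2 lay apart from all the others.

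**Figure D2:**
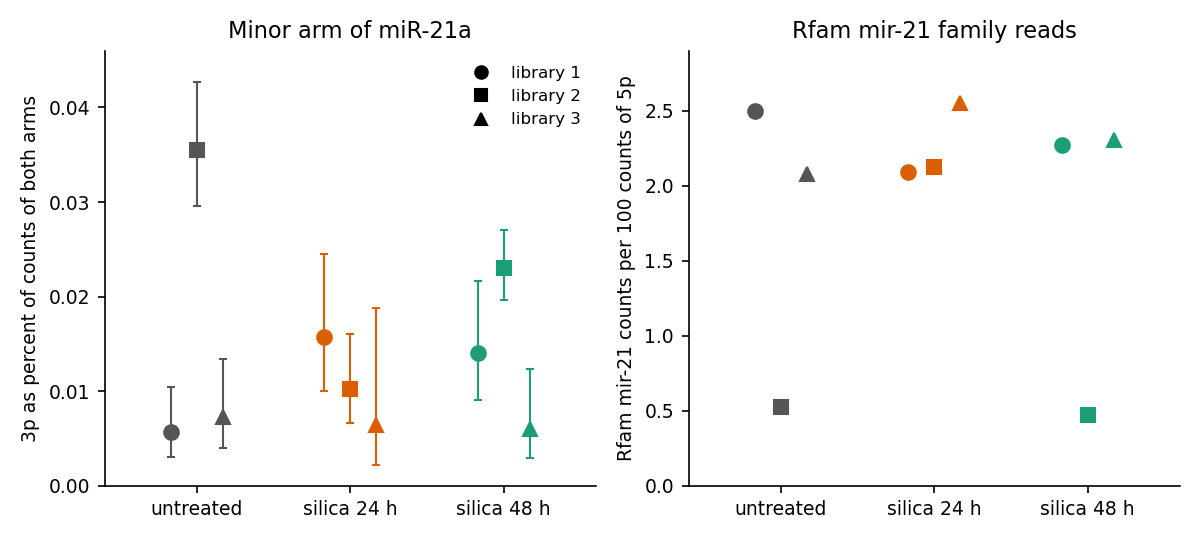
On the left, miR-21a-3p as a percentage of the counts of both arms with 95% Wilson intervals, and on the right the counts of the Rfam mir-21 family per 100 counts of miR-21a-5p, in each library by group. The untreated and 48 h libraries 2 have the highest shares of 3p, 0.0355% and 0.0230%, and the lowest Rfam values, 0.528 and 0.470.

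For 73 hairpins with both arms listed under matching names and at least 10000 counts together, the arms were again compared by mature rows alone. Among them miR-21a stood in position 5 from the lowest share of the minor arm, with 0.0185%, where the median was 1.30%. The 5p arm was the major one in 47 of the 73. Lower shares, picked after the values were seen, belonged to miR-146a at 0.000291%, miR-34a at 0.00415%, let-7g at 0.00716% and let-7b at 0.00956%. miR-155, another miRNA induced in activated macrophages, stood at 0.104%. The share of the minor arm was higher in both the untreated library 2 and the 48 h library 2 than in the other 7 libraries for 22 of the 73 hairpins (30.1%), miR-21a among them, and lower in both for 7 (9.59%).

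**Figure D3:**
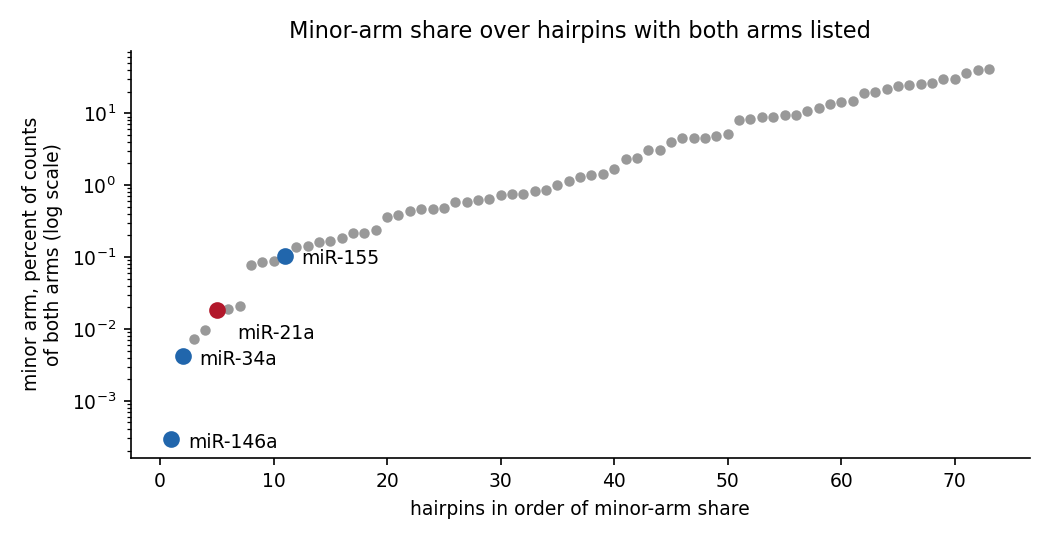
Share of the minor arm in the counts of both arms (log scale, percent, summed over 9 libraries) for 73 hairpins in rising order. miR-21a, in red, stands at 0.0185% in position 5, above miR-146a at 0.000291% and miR-34a at 0.00415% and below miR-155 at 0.104%.

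The arms varied together between libraries. Over the 9 libraries the log2 CPM of 5p and 3p had r = 0.928 (exact permutation p = 0.00112) and rho = 0.867 (exact permutation p = 0.00451), both two-sided, in the 1 relation tested. The libraries farthest from the median of 5p were the untreated library 2 and the 48 h library 2. Without them r was 0.763 (exact permutation p = 0.0389, n = 7) and rho was 0.75 (exact permutation p = 0.0663, n = 7). Without the next pair farthest from the median r was 0.345 over 5 libraries, so within the 7 the relation rests on few libraries. On deviations from the group means r was 0.954, and a group of 3 is too small for a value of its own.

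The files also count reads of the Rfam family mir-21, an entry for the precursor in a database of RNA families, apart from the mature rows. The sources used here do not say how reads were divided between these 2 kinds of row, so the shares of 3p above hold for the mature rows only. This entry had 4411, 1692 and 2854 counts in untreated, 2535, 3925 and 1200 at 24 h, and 3239, 3042 and 2709 at 48 h. Per 100 counts of miR-21a-5p these were 2.50, 0.528 and 2.08 in untreated, 2.09, 2.12 and 2.55 at 24 h, and 2.27, 0.470 and 2.30 at 48 h. The 7 libraries other than the untreated and the 48 h library 2 thus lay between 2.08 and 2.55, while those 2 lay far below. Group means were 1.70 ± 1.04 for untreated, 2.26 ± 0.257 for 24 h and 1.68 ± 1.05 for 48 h (SD, n = 3). Without those 2 libraries, a choice made after the values were seen, the means were 2.29 for untreated (n = 2), 2.26 for 24 h (n = 3) and 2.29 for 48 h (n = 2). Two-sided exact permutation tests gave p = 0.4 for the 24 h group and p = 1.0 for the 48 h group, each set against untreated, and p = 0.6 for 48 h set against 24 h, where 3 against 3 cannot give less than 0.1.

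A like ratio was compared between families, with no test. Here the divisor was all mature counts under the family name, which for mir-21 were both arms together. It was taken for 20 families with the same name in the mature and the Rfam rows, at least 10000 mature and at least 1000 Rfam counts. The coefficient of variation of this ratio over the 7 libraries had a median of 31.8%. It was 8.43% for mir-21, and 1 family was lower, mir-27 at 5.04%. In 7 of the 20 families, mir-21 and mir-27 included, both library 2 values lay below the other 7 libraries, and in 0 families both lay above. The Rfam precursor class as a whole, without the mir-21 entry, had 5.70 and 5.78 counts per 100 mature counts in those 2 libraries, inside the 4.58 to 11.4 of the other 7.

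The first comparison set the shorter silica exposure, 24 h, against no treatment. Neither arm passed edgeR's quasi-likelihood test. miR-21a-5p stood at 0.726-fold of the untreated level with a 95% interval of 0.397 to 1.33 (log2 fold change -0.46 ± 0.40, SE; edgeR adjusted p = 0.704, Benjamini-Hochberg over 453 miRNAs). The interval spans values well below and somewhat above the untreated level. In same-numbered libraries the ratio of 24 h to untreated was 0.951, 0.560 and 0.782, below 1 in 3 of 3. Of the 3 ratios, that of library 2 was the farthest from 1, and without the untreated library 2 the log2 fold change was -0.12, and -0.14 with the 48 h library 2 left out as well. miR-21a-3p stood at 0.414-fold with an interval of 0.0745 to 2.30 (log2 fold change -1.27 ± 1.13, SE; edgeR adjusted p = 0.716), and without the untreated library 2 the log2 fold change turned to 0.69. In same-numbered libraries its ratio was 2.64, 0.162 and 0.685, in no common direction.

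Of all 453 miRNAs, 0% passed edgeR's adjusted threshold at 24 h against untreated. At an unadjusted p under 0.05 there were 46 (10.2%), neither arm of miR-21a among them, while DESeq2 called 4, limma-voom 0 and edgeR with the replicate number as a block 3, again without either arm. The CPM ranges of the groups did not overlap for 75 miRNAs (16.6%; 10.4% with 24 h higher and 6.18% with 24 h lower). For miR-21a-5p they overlapped narrowly, since the highest 24 h library stood at 31304 CPM and the lowest untreated one at 31173. A bulk vesicle library cannot tell fewer vesicles carrying a miRNA from less of it in each.

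At 48 h of silica against untreated, miR-21a-5p did not pass either, and its estimate lay near the untreated level with a wide interval. It stood at 1.15-fold with a 95% interval of 0.627 to 2.09 (log2 fold change 0.20 ± 0.40, SE; edgeR adjusted p = 0.997). The ratio in same-numbered libraries was 1.25, 1.24 and 0.869, so that 2 of 3 lay above 1. Without the 48 h library 2 the log2 fold change was -0.25 and without the untreated library 2 it was 0.52, and with both left out it was 0.09. miR-21a-3p stood at 0.980-fold with an interval of 0.186 to 5.18 (log2 fold change -0.03 ± 1.10, SE; edgeR adjusted p = 0.997), and its sign changed with the scaling and with the libraries used. Over all miRNAs 0% passed the adjusted threshold, 4 (0.883%) had an unadjusted p under 0.05, DESeq2 called 1 and limma-voom 0, and the groups did not overlap for 3.75% (2.21% with 48 h higher and 1.55% with 48 h lower). Neither arm was in any of these sets.

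The 48 h libraries were also compared with the 24 h libraries directly. Here miR-21a-5p stood at 1.58-fold of the 24 h level with a 95% interval of 0.861 to 2.89, which did not pass (log2 fold change 0.66 ± 0.40, SE; edgeR adjusted p = 0.521). The ratio in same-numbered libraries was 1.31, 2.22 and 1.11, above 1 in 3 of 3. Without the 48 h library 2 the log2 fold change was 0.23, the smallest value with 1 library left out, and without the 48 h library 3 it was 0.95, the largest. miR-21a-3p stood at 2.37-fold with an interval of 0.427 to 13.1 (log2 fold change 1.24 ± 1.13, SE; edgeR adjusted p = 0.662), and at a log2 fold change of 0.15 without the 48 h library 2. Over all miRNAs 0% passed, 44 (9.71%) had an unadjusted p under 0.05, DESeq2 called 6 and limma-voom 0, and the groups did not overlap for 20.8% (10.4% in each direction). Neither arm was in any of these sets. The 3 comparisons share libraries in pairs, so their values are not independent of each other.

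**Figure D4:**
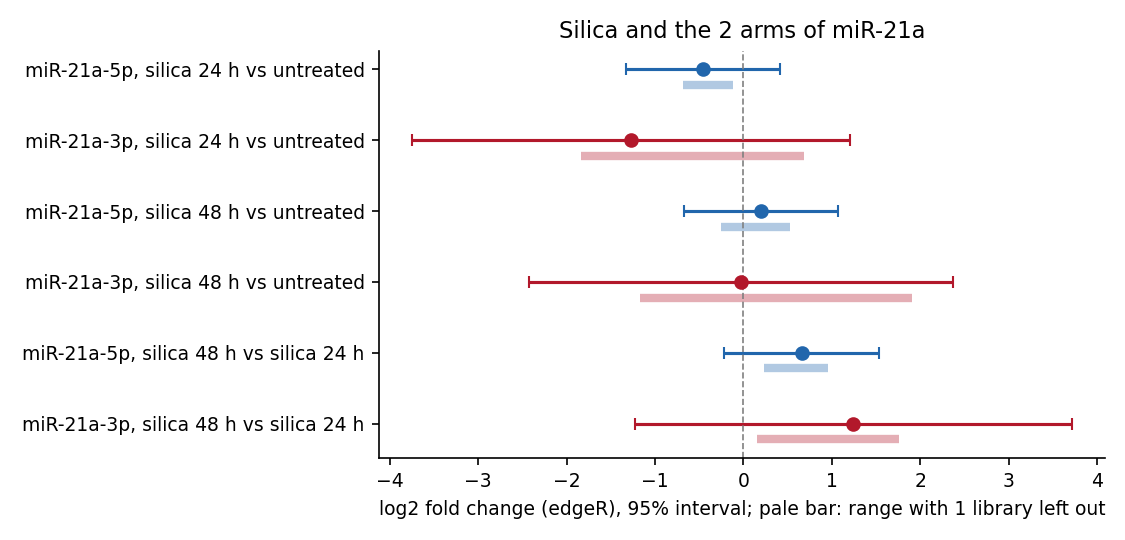
Log2 fold changes of the 2 arms of miR-21a in the 3 comparisons from edgeR (points, with 95% intervals); the pale bar under each point spans the values with 1 of the 9 libraries left out. Every interval includes 0, and those of miR-21a-3p, such as -3.75 to 1.20 at 24 h against untreated, are wider than those of miR-21a-5p, such as -1.33 to 0.41.

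The widths of these intervals follow the spread between libraries of a group. The pooled SD of log2 CPM within groups was 0.48 for miR-21a-5p. The median was 0.57 over the 58 tested miRNAs with a mean of at least 1000 CPM, of which 21 had a smaller SD than miR-21a-5p. For miR-21a-3p the SD was 1.39, against a median of 1.21 over the 184 tested miRNAs within 3-fold of its mean, of which 121 had a smaller one. miR-21a-5p thus varied about as an abundant miRNA did here, and its SE of 0.40 was under the median SE of 0.82 to 0.83 over all tested miRNAs. The balance of the arms did not separate the groups either. The mean log2 ratio of 5p to 3p was 13.1 ± 1.44 for untreated, 13.3 ± 0.649 for 24 h and 13.0 ± 0.987 for 48 h (SD, n = 3). The two-sided exact permutation p was 0.9 for either silica group set against untreated and 0.8 for 48 h set against 24 h, and with the untreated and the 48 h library 2 left out the difference of 24 h from untreated turned from 0.17 to -0.65.

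Several miRNAs followed miR-21a over the libraries. The likeness is Pearson's r of log2 CPM over 9 libraries, among tested miRNAs with a mean of at least 100 CPM, and the points share the scaling and the pair of libraries that stood apart. For miR-21a-5p, with 142 candidates and a median r of 0.0367, the highest were miR-182-5p at 0.947, miR-301a-3p at 0.941, miR-17-5p at 0.939, miR-20a-5p at 0.935 and miR-221-3p at 0.932. Spearman's rho in the same order was 0.883, 0.783, 0.783, 0.783 and 0.55. Without the untreated and the 48 h library 2, Pearson's r was 0.810, 0.770, 0.711, 0.681 and 0.562. miR-17-5p and miR-20a-5p come from one cluster known for promoting cell cycle entry, and miR-221-3p is known to repress inhibitors of the cell cycle. A function common to the miRNAs most like miR-21a-5p was not tested. For miR-21a-3p the highest were miR-182-5p at 0.929, miR-21a-5p itself at 0.928, miR-18a-5p at 0.922, miR-301a-3p at 0.921 and miR-17-5p at 0.910. Without the same pair of libraries these were lower, at 0.828, 0.763, 0.554, 0.601 and 0.477. The closest to both arms, miR-182-5p, had 887, 1405 and 741 CPM in untreated, 924, 1049 and 700 at 24 h, and 1134, 1695 and 703 at 48 h. As with miR-21a-5p, library 2 was the highest of the untreated and of the 48 h group and library 3 the lowest of every group. miR-221-3p, the most abundant of those like miR-21a-5p, had 23186 and 30985 CPM in the untreated and the 48 h library 2 and 4331 to 10053 in the other 7.

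Among other miRNAs of activated macrophages, 0 of 16 tested (18 written down) passed edgeR in any comparison. At 24 h against untreated 7 had a positive and 9 a negative log2 fold change, with a median of -0.08. Of all 453 miRNAs 211 were positive there, with a median of -0.07. At 48 h 11 of 16 on the list were positive (median 0.19, all miRNAs 0.03 and 238 of 453 positive). Between the times 11 of 16 on the list were positive (median 0.14, all miRNAs 0.14 and 245 of 453 positive). The most abundant on the list were miR-222-3p, miR-146a-5p, a brake on Toll-like receptor signalling, and miR-27b-3p. In the order untreated, 24 h and 48 h, miR-146a-5p stood at 53784 ± 29658, 45494 ± 5707 and 49860 ± 20416 CPM, and miR-222-3p at 40426 ± 11958, 62682 ± 15169 and 46599 ± 9458 (SD, n = 3). miR-27b-3p stood at 48205 ± 23632, 32718 ± 8184 and 43981 ± 15597 CPM. The mean of miR-21a-5p was 0.760 times that of miR-222-3p and 0.763 times that of miR-146a-5p. It was 302 times that of miR-223-3p, a miRNA of granulocytes and macrophages, and 428 times that of miR-142a-5p, a miRNA of blood cells. miR-147-3p, also on the list, was listed in no library.

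Of miRNAs linked to fibrosis, 0 of 18 tested (20 written down) passed in any comparison. At 24 h against untreated 5 were positive and 13 negative (median -0.31, all miRNAs -0.07 and 211 of 453 positive). At 48 h 11 were positive and 7 negative (median 0.11, all miRNAs 0.03 and 238 of 453 positive). Between the times 11 were positive and 7 negative (median 0.46, all miRNAs 0.14 and 245 of 453 positive). miR-34a-5p, a target of p53, was the most abundant, with 19717 ± 7808, 22397 ± 4519 and 20715 ± 9432 CPM in the same order of groups (SD, n = 3), followed by let-7d-5p and the collagen-targeting miR-29a-3p. let-7d-5p stood at 7353 ± 770.1, 6775 ± 2960 and 8699 ± 2677 CPM, and miR-29a-3p at 3726 ± 2172, 2793 ± 473 and 5146 ± 3065. The mean CPM of miR-21a-5p was 9.75 times that of miR-29a-3p.

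The medium held fetal bovine serum, and the mature sequence of miR-21-5p is the same in many vertebrates. Of the miRNAs of blood and liver, miR-122-5p, abundant in hepatocytes, stood at 825 ± 528, 1820 ± 515 and 817 ± 361 CPM in the same order of groups. miR-451a, abundant in erythrocytes, stood at 444 ± 260, 1953 ± 1290 and 652 ± 211, and miR-16-5p, found in blood and in most cells, at 17261 ± 13462, 9192 ± 552 and 19677 ± 19326 (SD, n = 3). miR-122-5p and miR-451a had their highest mean at 24 h, where miR-21a-5p had its lowest, whereas miR-16-5p, like miR-21a-5p, had its lowest there. The 5 erythroid, liver and serum markers, led by miR-16-5p, summed to 10108 to 33171 CPM in untreated, 11571 to 15221 at 24 h and 8156 to 43080 at 48 h. None of the 4 tested passed edgeR in any comparison. At 24 h against untreated 2 of these 4 had a positive and 2 a negative log2 fold change. The part of serum RNA in the counts of miR-21a-5p was not tested.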

How the data were processed

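Small RNA was sequenced from exosomes of RAW264.7 cells, collected by ultracentrifugation and extracted with Trizol, with BGISEQ-500 libraries, per the labels' protocols. Per the submitters' processing notes, Trim Galore, Bowtie, HTSeq and build mm10 were used, without versions; the sources used here do not give the treatment of multi-mapping reads. Per the file headers, each library's table holds raw counts per small RNA, and a deposited RPM column, headed TPM, which is the count scaled to all counted reads of the library; only the counts were analysed. A miRNA without a mature row counted as 0. Of 1101 mature miRNAs, filterByExpr (minimum count 10) kept 453, both arms of miR-21a included. TMM factors ran from 0.829 to 1.16. The main test was that of edgeR 4.0.16 (quasi-likelihood, all 9 libraries, 6 residual degrees of freedom, no block, Benjamini-Hochberg threshold 0.05); limma 3.58.1 and DESeq2 1.42.0 were alternatives, with other scalings, no filter, 2 groups only, a replicate block and libraries left out. Poisson and Wilson intervals and floors cover counting error only; the intervals of fold changes and the p-values reflect the spread between these libraries. Log values used a prior count of 2.

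The labels state no pairing. The deviations of same-numbered libraries 1, 2 and 3 from their group means had r = 0.136, 0.439 and 0.149 for 24 h and untreated, 0.152, 0.636 and 0.315 for 48 h and untreated, and -0.07, 0.289 and 0.253 for 48 h and 24 h. All 3 passed the bar of 0.1 in the first 2 comparisons, and number 1 did not in the last. In the first 2 comparisons only number 2 stood out, since differently numbered libraries reached 0.160 (24 h library 3 with untreated library 1) and 0.360 (48 h library 3 with untreated library 1). For 48 h and 24 h, numbers 2 and 3 both lay above the 0.081 that differently numbered libraries reached (48 h library 3 with 24 h library 1). Libraries of a group were no duplicates (chi-square per degree of freedom 194 to 1941, against 1 for sampling noise). The members, lists and the rule for named miRNAs (the arms, their seed mates and sequence relatives, the 2 nearest miRNAs by level on each side, the 5 most alike, the 3 most abundant of each list, other rows named mir-21) were chosen with earlier results of these data known, and the sets of 73 hairpins and 20 families after the values were seen.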

Additional observations from a re-analysis of the deposited data

How the results depend on the processing

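The log2 fold changes of the 2 arms were recomputed in 9 ways with 1 library left out and in 10 other ways, and 0 of the 114 values passed an adjusted p of 0.05. For miR-21a-5p the value ran from -0.68 to -0.12 at 24 h against untreated, from -0.25 to 0.52 at 48 h against untreated and from 0.23 to 0.95 between the times with 1 library left out, and from -0.62 to -0.14, 0.09 to 0.31 and 0.23 to 0.93 under the other alternatives. For miR-21a-3p the ranges with 1 library left out were -1.84 to 0.69, -1.17 to 1.91 and 0.15 to 1.76. At 24 h its sign turned to 0.67 with the untreated library 2 and the 48 h library 2 both left out. At 48 h against untreated, where its value is -0.029, the sign turned to 0.047 with DESeq2 size factors, 0.046 with DESeq2, 0.10 with upper-quartile factors, 0.13 with the total of all counted reads, 0.43 with limma-voom, 0.083 without a filter, 0.094 with the replicate number as a block and 0.83 with both libraries left out. For miR-21a-5p at 48 h the sign turned without the untreated library 3 or the 48 h library 2. The median of all miRNAs at 24 h, -0.07, became 0.05 with upper-quartile factors and -0.21 with the total of all counted reads; relative to that median miR-21a-5p stood at -0.39, -0.32 and -0.41.

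The difference in log2(5p/3p) ran from -0.65 to 0.67, -0.95 to 0.37 and -0.83 to 0.14 in the 3 comparisons with 1 library left out. With both libraries left out it turned from 0.17 to -0.65 at 24 h against untreated and from -0.30 to 0.14 between the times. As a share of 3p it changed sense at 48 h against untreated, with a difference of -0.0018 percentage points. As a mean over same-numbered libraries (the replicate block) it was the same by construction (exact sign-flip p = 0.75, 1.0 and 1.0). The causes were not tested.

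The number of miRNAs called, 0 in each comparison, became 1 (upper-quartile factors), 4 (DESeq2), 7 (no filter), 3 (replicate block) and 1 (2 groups only) at 24 h against untreated, 1 (DESeq2) and 1 (no filter) at 48 h, and 6 (DESeq2), 16 (no filter) and 3 (replicate block) between the times. With 1 library left out it was 0 to 1, 0 and 0 to 1: 1 without the 48 h library 1 (24 h against untreated and between the times) or the 48 h library 2 (24 h against untreated). The block changed no call of miR-21a. With it, the log2 fold change of miR-21a-5p was -0.41 ± 0.28 at 24 h against untreated (SE). It was 0.15 ± 0.28 at 48 h against untreated and 0.56 ± 0.28 between the times. These SE were smaller than the 0.40 without the block, and the lowest edgeR adjusted p was 0.323, between the times. With 3 to 149 counts of miR-21a-3p in a library, counting error adds to the spread of that arm.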
